A study of Mus musculus with 4 samples.

Results

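The 44 genes described here encode the BCL2 family, the caspases and adaptors of mitochondrial apoptosis, and p53 with its inhibitors and target genes. They were chosen as a list of mouse symbols matched to Entrez gene identifiers, from 18872 genes listed in all. The RNA came from primary epithelial cells of the mouse colon after 3 days on 2% DSS (dextran sulfate sodium), which damages the gut surface and causes colitis. The wild-type group had 2 libraries, and the group with EZH2-IEC-/-, a loss of the histone methyltransferase Ezh2 in the intestinal epithelium (knockout), had 2. Both groups received DSS. The labels give neither the allele, what drives the deletion, nor the age of the mice, and leave unsaid whether each library is a mouse of its own. The p-values therefore cover no more than the scatter of these 4 libraries, and that scatter may be technical.

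Mitochondrial apoptosis is decided among BCL2 proteins. BAX and BAK1 open pores in the outer mitochondrial membrane, pro-survival members such as MCL1 and BCL2L1 hold them in check, and BH3-only proteins relieve that check. Cytochrome c released through the pores assembles APAF1 and caspase-9 into the apoptosome, which starts the executioner caspases. The transcription factor p53 raises several genes of this pathway together with genes of cell cycle arrest, metabolism and repair. MDM2 degrades p53, MDM4 blocks it, and p19ARF, a product of the Cdkn2a locus that Polycomb silences, inhibits MDM2. In the intestinal epithelium p53 and its target Bbc3 are best known for the response of crypt cells to radiation.

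The libraries held 5037367 to 5446998 estimated counts. Ezh2 (Entrez 14056) was counted at 105 and 102 in wild type, against 86 and 83 in the knockout, a log2 fold change of -0.27 ± 0.17 (SE) that did not pass (adjusted p = 0.217). The removed exons are not given in the labels, and a count over the whole gene therefore does not check the deletion. Epithelial markers were abundant, with Krt8 at 3274 ± 38.0 FPKM in wild type and 3758 ± 38.2 in knockout (SD, n = 2). Of the 10 chosen, 7 were higher and 3 lower in the knockout, with Epcam going from 880 ± 53.8 to 679 ± 43.3 FPKM. FPKM divides the count by the length of the transcript and the depth of the library. Markers of other cells were also present. The summed level of 10 fibroblast and muscle markers was 2400 and 2595 FPKM in wild type, against 1136 and 1444 in the knockout. The 9 T and NK cell markers tested summed to 23.1 and 20.7 FPKM in wild type, against 64.8 and 70.7 in the knockout. Nkg7 was at 0 in wild-type replicate 1, and Trac, the remaining marker chosen, was listed for no library and not used. The part of these cells in the results below was not tested, and in bulk samples fewer cells of a type and less RNA per cell cannot be told apart.

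In the knockout, the pore formers Bak1 and Bax rose and the pro-survival gene Mcl1 fell. Apaf1 rose while its partner Casp9 fell, and the p53 inhibitor Mdm2 rose while Mdm4 fell. The p53 target genes moved in both directions, with Ccng1, Phlda3, Aen, Eda2r and Gtse1 higher and Sesn1, Trp53inp1 and Btg2 lower. Of the 7 BH3-only genes tested, 1 changed (14.3%, beside 43.7% of all genes tested). A gene was called changed when its adjusted p in edgeR's quasi-likelihood test, adjusted by Benjamini-Hochberg over all genes tested, was under 0.05. Of the 44 genes, 43 had enough counts to be tested, 13 rose and 7 fell. That is 46.5%, beside 43.7% of all 13608 genes tested, of which 23.0% rose and 20.8% fell, so the share called was near that of all genes. The median log2 fold change, knockout minus wild type, was 0.034 over the 43 genes and -0.002 over all genes. Scaling changed the lower side of this count. On library totals alone, which moved the median of all genes to -0.103, 13 of the 43 genes were higher and 11 lower, and the higher genes made up 42.4% of all called genes in place of 52.5%.

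**Figure D1:**
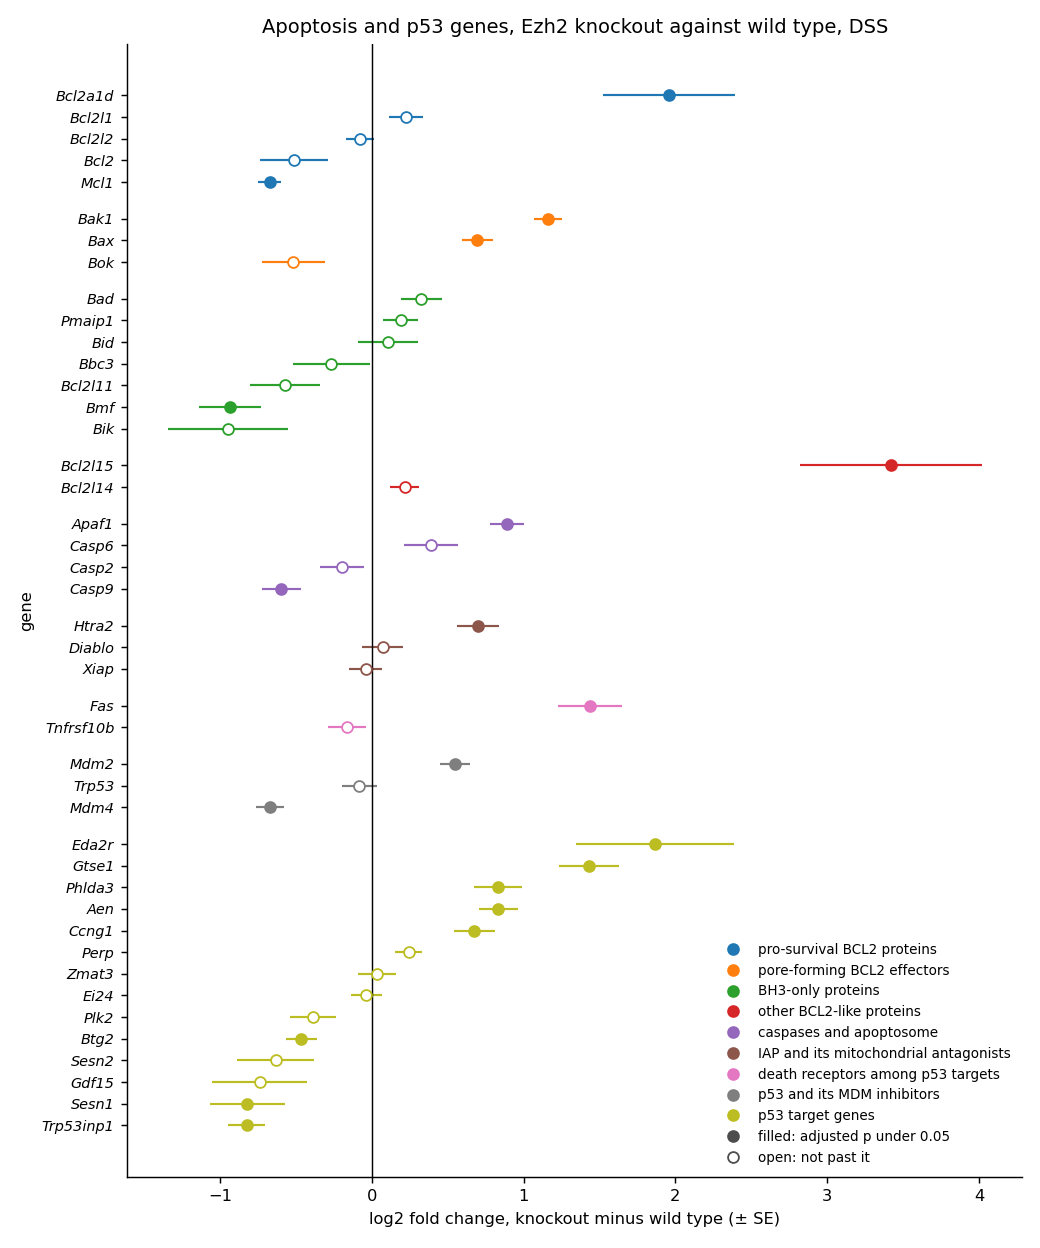
Log2 fold change of each tested gene, knockout minus wild type, on the x axis with its standard error as a bar, and the genes grouped by role on the y axis. Filled points passed an adjusted p of 0.05 and open points did not. Filled points lie on both sides of 0 among the pro-survival, caspase, MDM and p53 target genes, whereas both filled effector genes lie above 0.

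Mcl1 dominated the pro-survival transcripts. Mcl1 (Entrez 17210), which encodes a short-lived BCL2 protein that binds BAK1, was measured at 250.5 and 249.8 FPKM in wild type, against 141 and 151 in the knockout. The groups did not overlap, and the fall of 0.67 ± 0.08 (SE) on the log2 scale passed (adjusted p = 0.000144). With 2 libraries against 2, the FPKM values of the groups did not overlap for 73.0% of all genes tested (higher in the knockout for 30.4% and lower for 42.5%), so a lack of overlap here and below describes the values and is no test. Its share of the summed FPKM of the 5 pro-survival genes was 82.0% and 80.8% in wild type, against 70.3% and 69.7% in the knockout. Bcl2l1, which encodes BCL-XL, had 26.4 and 26.6 FPKM in wild type, against 26.2 and 32.0 in the knockout. Its knockout values lay on both sides of the wild-type values, and its log2 fold change of 0.23 ± 0.11 did not pass (adjusted p = 0.131). Bcl2l1 passed as higher in edgeR with the replicate number as a block (adjusted p = 0.0344). Its log2 fold change was 0.34 without knockout replicate 1 and 0.09 without knockout replicate 2. Bcl2l2, which encodes BCL-W, had 25.2 and 26.1 FPKM in wild type, against 22.4 and 23.0 in the knockout, a log2 fold change of -0.08 ± 0.09 (adjusted p = 0.534).

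The remaining pro-survival genes were expressed at low levels. Bcl2 itself had 2.25 and 3.01 FPKM in wild type, against 1.30 and 2.02 in the knockout. Its log2 fold change was -0.51 ± 0.22 and did not pass (adjusted p = 0.0909), whereas without knockout replicate 2 it did (-0.80, adjusted p = 0.0228). Bcl2a1d (Entrez 12047), a member of a mouse cluster of near-identical pro-survival genes best known in blood cells, was counted at 4.85 and 15.4 in wild type, against 41.0 and 36.1 in the knockout. It rose by 1.96 ± 0.43 on the log2 scale (adjusted p = 0.00592), by 2.91 without wild-type replicate 2 and by 1.40 without wild-type replicate 1. Reads of such copies can be split between them, so the value of 1 copy is uncertain. Summed over Bcl2a1a, Bcl2a1b and Bcl2a1d, the counts were 32.0 and 44.9 in wild type, against 120.0 and 123.9 in the knockout, and each of the 3 passed as higher. For comparison, 23.0% of all genes tested rose. T and NK cell markers (8 of 9 tested rose) and myeloid and neutrophil markers (9 of 11 rose, leaving out Ly6g, which 2 files do not list) were higher in the same libraries. The latter 11 summed to 301.8 and 318.5 FPKM in wild type, against 581.7 and 592.9 in the knockout, and their part in the Bcl2a1 counts was not tested.

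Bak1 and Bax went the other way from Mcl1. Bak1 (Entrez 12018) had 57.2 and 61.1 FPKM in wild type, against 128 and 118 in the knockout. The knockout mean was 2.08 times the wild-type mean, with no overlap. This rise of 1.16 ± 0.09 on the log2 scale had the smallest adjusted p of the 43 genes (2.01e-05). Bax (Entrez 12028) had 54.8 and 61.9 FPKM in wild type, against 89.0 and 87.1 in the knockout, with no overlap, and rose by 0.70 ± 0.10 (adjusted p = 0.000708). Bok, a BAX-like protein whose activity is less dependent on the other BCL2 proteins, had 12.6 and 9.38 FPKM in wild type, against 6.77 and 7.37 in the knockout. Its log2 fold change of -0.52 ± 0.21 did not pass (adjusted p = 0.0738). It passed as lower on library totals alone, with limma on log2(FPKM + 1) and on log2(FPKM + 0.01), and with the replicate number as a block.

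The summed FPKM of the 5 pro-survival genes was 2.73 and 2.52 times that of Bax and Bak1 in the wild-type libraries. In the knockout libraries it was 0.927 and 1.055 times. Transcripts of these 5 genes thus outnumbered those of the main effectors in wild type and were about equal to them in knockout. Of the near-identical Bcl2a1 copies, the sum holds Bcl2a1d only. Bcl2a1a, Bcl2a1b and Bcl2a1d together had 8.47 and 11.34 FPKM in wild type, against 29.35 and 30.09 in the knockout. The sums went from 305.7 and 309.3 FPKM to 201 and 216 for the pro-survival genes and from 112 and 123 to 217 and 205 for Bax and Bak1. These are transcript levels per length, and protein was not measured here.

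**Figure D2:**
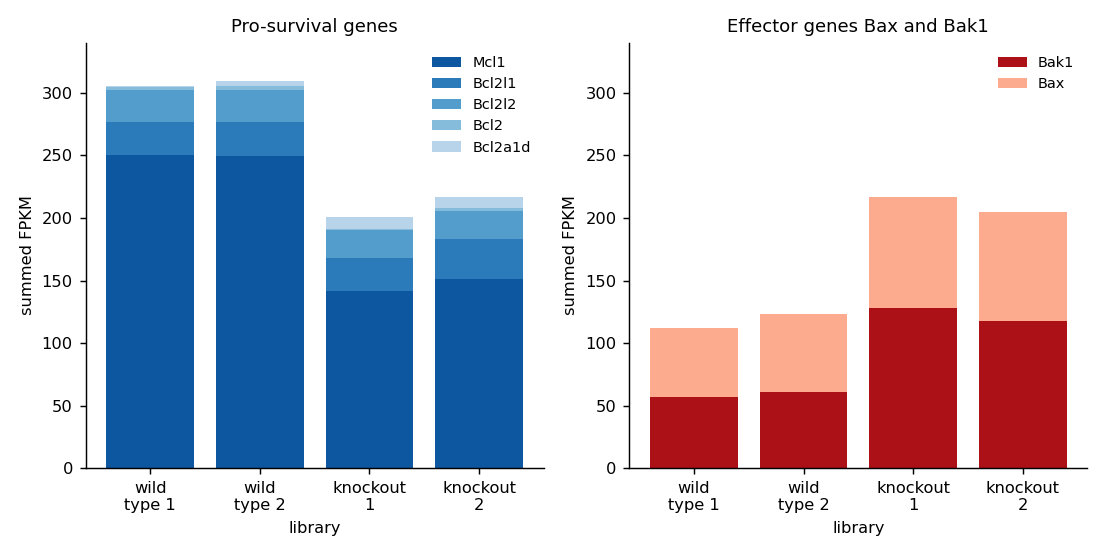
Summed FPKM (y axis) of the 5 pro-survival genes (left) and of Bax and Bak1 (right) in each library (x axis), with the share of each gene as a stacked block. The left bars drop from above 300 in wild type to 201 and 216 in knockout, and the right bars go from 112 and 123 to 217 and 205.

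Among the BH3-only genes, Bmf alone passed, 1 of 7 tested, or 14.3% beside 43.7% of all genes. When the replicate number was added to the fit as a block, Bad also passed as higher, and Bik and Bcl2l11 as lower. Bmf (Entrez 171543), whose protein is tied to the cytoskeleton and released when cells detach, had 4.05 and 3.82 FPKM in wild type, against 1.69 and 2.15 in the knockout. It fell by 0.93 ± 0.20 on the log2 scale (adjusted p = 0.00558), and its transcript list differs between the replicate 1 and replicate 2 files. The other tested members had log2 fold changes from -0.95 to 0.33. Bad and Pmaip1, the latter encoding NOXA, were the most abundant and made up 63.4% and 64.9% of the group's FPKM in wild type, against 74.2% and 74.5% in the knockout. Pmaip1, which encodes an inhibitor of MCL1 and is a p53 target, had 19.5 and 16.8 FPKM in wild type, against 18.7 and 19.95 in the knockout, with overlapping groups (log2 fold change 0.19 ± 0.11, adjusted p = 0.211). Bbc3, which encodes PUMA, had 5.03 and 7.73 FPKM in wild type, against 4.96 and 4.92 in the knockout.

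For Bbc3 the log2 fold change was -0.27 ± 0.25 and did not pass (adjusted p = 0.424), and it was 0.079 without wild-type replicate 2, so these libraries give it no direction. Bcl2l11, which encodes BIM, had 5.06 and 3.32 FPKM in wild type, against 2.87 and 2.57 in the knockout (log2 fold change -0.57 ± 0.23, adjusted p = 0.0754). Both knockout values were below both wild-type values, and the gene passed without wild-type replicate 2 and on library totals alone. Bik had 7.09 and 4.55 FPKM in wild type, against 3.41 and 2.18 in the knockout from at most 33 counts. Its log2 fold change of -0.95 ± 0.40 did not pass (adjusted p = 0.0825). Bik passed as lower with limma on log2(FPKM + 1) and on log2(FPKM + 0.01) (adjusted p = 0.0333 and 0.0381), but not in DESeq2 (adjusted p = 0.35). Bid, the link from death receptors to mitochondria, and Bad did not pass, with log2 fold changes of 0.11 ± 0.20 and 0.33 ± 0.14 (adjusted p = 0.695 and 0.0814). Hrk, known mainly from neurons, was counted at 0.24 in wild-type replicate 2 and 0 elsewhere, under the 3 counts that a count of 0 still allows, and was not tested.

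The remaining BCL2-like genes differed in level. Bcl2l14, which encodes BCL-G, had 30.5 and 29.7 FPKM in wild type, against 33.3 and 31.9 in the knockout, with a fold change of 0.22 ± 0.09 (log2) that missed the threshold (adjusted p = 0.0903). Bcl2l15 (Entrez 229672), which encodes a BCL2-like protein of the gut, was counted at 2 and 1 in wild type, against 16.0 and 18.0 in the knockout. It rose by 3.42 ± 0.60 on the log2 scale (adjusted p = 0.00178), the highest fold change of the 43 genes. Per total count it was 10.7 times higher in knockout, with an exact Clopper-Pearson interval of 95% from 3.38 to 54.6 that covers counting error only. The ratio of its mean FPKM was 20.8. FPKM divides by the deposited length, which was 1993 bases in both wild-type files and 1110 and 955 in the knockout files.

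The apoptosome genes moved in opposite directions. Apaf1 (Entrez 11783), the scaffold that binds cytochrome c, had 5.89 and 5.96 FPKM in wild type, against 11.0 and 9.45 in the knockout. It rose by 0.89 ± 0.11 on the log2 scale (adjusted p = 0.000288). Casp9 (Entrez 12371), the initiator caspase it activates, had 9.52 and 10.1 FPKM in wild type, against 6.15 and 6.0 in the knockout. Neither gene's groups overlapped. Casp9 fell by 0.59 ± 0.13 (adjusted p = 0.00537), a call that was lost in DESeq2 (adjusted p = 0.0605). The ratio of Apaf1 to Casp9 FPKM was 0.619 and 0.593 in wild type, against 1.79 and 1.57 in the knockout.

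Of the other caspases and caspase regulators among the 44, Htra2 alone passed. Casp2, an initiator linked to p53 through PIDD1, had 12.9 and 9.94 FPKM in wild type, against 9.39 and 9.14 in the knockout (log2 fold change -0.19 ± 0.14, adjusted p = 0.303). Casp6, an executioner, had 11.0 and 12.5 FPKM in wild type, against 12.9 and 15.8 in the knockout (0.39 ± 0.18, adjusted p = 0.112). Neither caspase passed. Htra2 (Entrez 64704), a mitochondrial protease that relieves inhibition by XIAP, had 11.7 and 12.1 FPKM in wild type, against 18.7 and 17.3 in the knockout. It rose by 0.70 ± 0.14 on the log2 scale (adjusted p = 0.00341). Diablo, which acts in the same way, and the caspase inhibitor Xiap did not pass, with log2 fold changes of 0.07 ± 0.14 and -0.04 ± 0.11 (adjusted p = 0.70 and 0.794).

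Of 26 further apoptosis genes, 24 were tested, of which 13 rose and 0 fell, with a median log2 fold change of 0.46 beside -0.002 for all genes. That is 54.2% called, beside 43.7% of all genes tested (23.0% higher and 20.8% lower). No gene was lower at an unadjusted p under 0.05 in edgeR or by DESeq2 (0 of 24 each), and the 11 that did not pass had log2 fold changes from -0.16 to 0.46. The list was chosen with earlier results of these data known, so its counts and median describe it and are no test. Bcl2a1a and Bcl2a1b, named above, are among the genes that rose. Cycs, which encodes cytochrome c, rose from 67.8 ± 6.66 to 187 ± 7.06 FPKM (log2 fold change 1.56 ± 0.09). Casp8, the initiator caspase downstream of death receptors, rose from 33.2 ± 1.27 to 54.7 ± 2.96 FPKM. Hsp90b1, a chaperone of the endoplasmic reticulum, rose by 1.41 ± 0.08 on the log2 scale. The caspase inhibitors Birc2 and Birc3 did not pass, with log2 fold changes of 0.06 ± 0.14 and 0.02 ± 0.10 (adjusted p = 0.746 and 0.90).

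**Figure D3:**
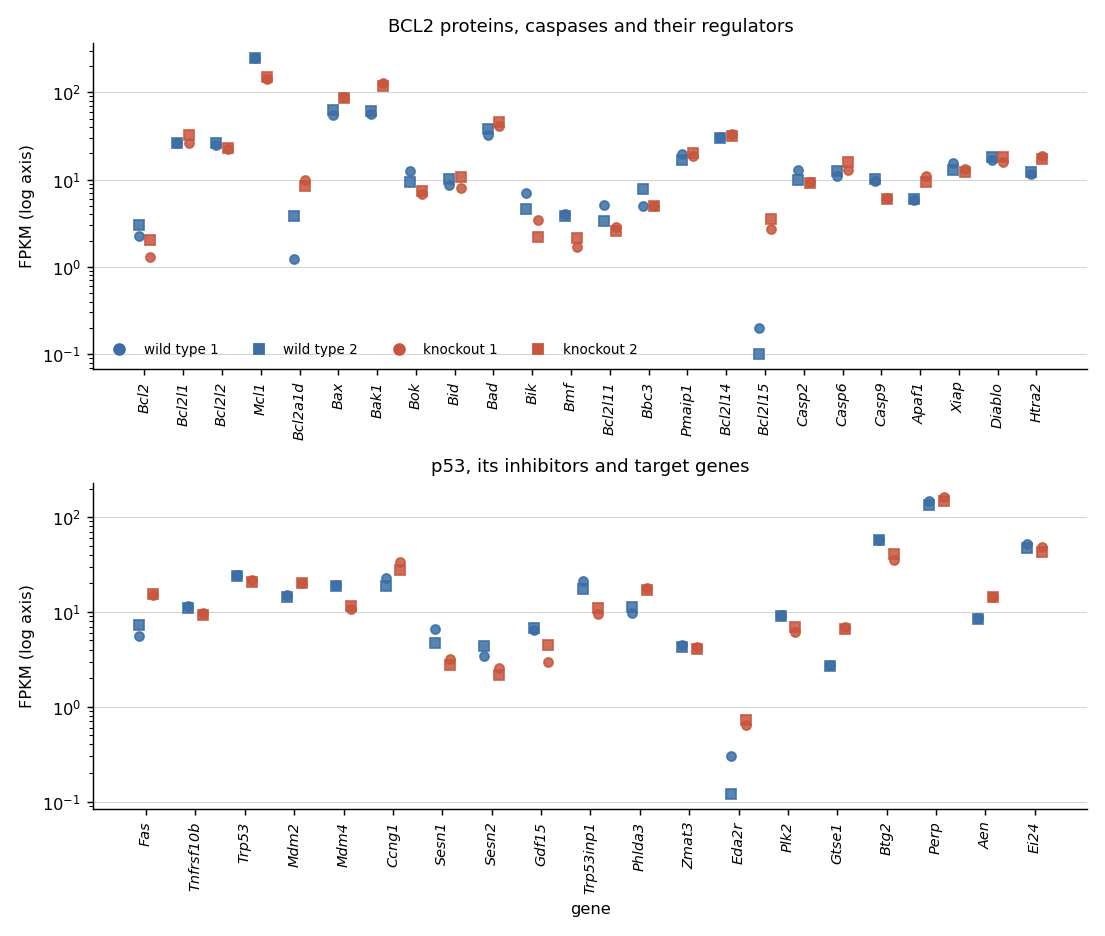
FPKM of each gene on a log axis (y axis) in the 2 wild-type libraries (blue) and the 2 knockout libraries (red), circles for replicate 1 and squares for replicate 2, with genes along the x axis and Hrk left out. Mcl1 lies at 141 FPKM or more in every library, whereas Eda2r lies under 1 FPKM in every library and Bcl2l15 in wild type only.

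Above these genes, Cdkn2a was counted at 1 in each wild-type library and at 153 and 165 in the knockout libraries. Per total count it was 151 times higher in knockout, with an exact Clopper-Pearson interval of 95% from 41.4 to 1249 that covers counting error only. The count covers the whole locus and does not separate the ARF transcript, whose protein inhibits MDM2, from the INK4A transcript. Trp53, which encodes p53, had 24.4 and 23.7 FPKM in wild type, against 21.6 and 20.8 in the knockout, with a fold change of -0.08 ± 0.12 (log2) that missed the threshold (adjusted p = 0.594). p53 is controlled mainly at the level of its protein, so this transcript is not a measure of its activity.

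The MDM genes moved apart. Mdm2 (Entrez 17246), both an inhibitor and a target of p53, had 14.99 and 14.4 FPKM in wild type, against 20.2 and 20.1 in the knockout. All knockout values exceeded the wild-type values, and it rose by 0.55 ± 0.10 on the log2 scale (adjusted p = 0.00198). Mdm4 (Entrez 17248), which binds and blocks p53, had 19.2 and 18.7 FPKM in wild type, against 10.8 and 11.5 in the knockout. It fell by 0.67 ± 0.09 (adjusted p = 0.000457). The ratio of Mdm2 to Mdm4 FPKM was 0.781 and 0.766 in wild type, against 1.88 and 1.75 in the knockout. Of 15 genes of the p53 circuit upstream, 13 were tested, of which Cdkn2a and E2f1 rose and Atm and Cop1 fell. That is 30.8% called, beside 43.7% of all genes. Atm, the kinase that activates p53 after DNA breaks, had a log2 fold change of -0.78 ± 0.17, and Cop1, a ubiquitin ligase of p53, of -0.42 ± 0.10.

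Of the 14 p53 target genes, 5 rose, 3 fell and 6 did not pass. That is 57.1% called, beside 43.7% of all genes, with a median log2 fold change of -0.0003 beside -0.002 for all genes. These values depend on the grouping, as they leave out p53 targets placed in other groups. Among those, Bax, Apaf1, Mdm2 and Fas rose, whereas Pmaip1, Bbc3 and Tnfrsf10b did not pass. Ccng1 (Entrez 12450), which encodes cyclin G1, had 23.1 and 18.6 FPKM in wild type, against 33.9 and 28.0 in the knockout, and rose by 0.67 ± 0.13 (adjusted p = 0.00348). Phlda3 (Entrez 27280), a repressor of AKT signalling, had 9.84 and 11.2 FPKM in wild type, against 17.8 and 17.1 in the knockout, and rose by 0.83 ± 0.16 (adjusted p = 0.00268). Aen (Entrez 68048), an apoptosis-enhancing nuclease, had 8.72 and 8.46 FPKM in wild type, against 14.5 and 14.4 in the knockout, and rose by 0.83 ± 0.13 (adjusted p = 0.000896). The groups did not overlap for any of these genes. Eda2r, the receptor of ectodysplasin A2, was counted at 6 and 3 in wild type, against 14 and 19 in the knockout. Its rise of 1.87 ± 0.52 (adjusted p = 0.0178) was lost without wild-type replicate 2 (adjusted p = 0.107), without knockout replicate 2 (adjusted p = 0.0957), in DESeq2 (adjusted p = 0.151) and with limma on log2(FPKM + 0.01) (adjusted p = 0.0706).

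Gtse1 (Entrez 29870) had 2.74 and 2.67 FPKM in wild type, against 6.93 and 6.60 in the knockout, and rose by 1.43 ± 0.20 (adjusted p = 0.000458). Its protein is made in G2 phase and moves p53 out of the nucleus. Of 18 genes of G2 and M phase, 17 rose and 0 fell in the same libraries, or 94.4% called beside 43.7% of all genes. The number lower was also 0 at an unadjusted p under 0.05 in edgeR and 0 by DESeq2. This list too was chosen with earlier results of these data known, so its counts are no test. Birc5 was at 20.4 ± 0.27 FPKM in wild type and 68.4 ± 1.02 in knockout, and the part of proliferation in the Gtse1 value was not tested. Cenpf was the G2 and M gene that did not pass (0.22 ± 0.14, adjusted p = 0.245).

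The targets that fell were Trp53inp1, Btg2 and Sesn1. Trp53inp1 (Entrez 60599), which links p53 to autophagy and cell death, had 21.2 and 17.4 FPKM in wild type, against 9.46 and 10.9 in the knockout, and fell by 0.82 ± 0.12 (adjusted p = 0.000745). Btg2 (Entrez 12227), an antiproliferative and immediate-early gene, had 56.9 and 56.8 FPKM in wild type, against 35.7 and 41.1 in the knockout, and fell by 0.46 ± 0.10 (adjusted p = 0.0051). Sesn1, a stress sensor that restrains mTORC1, had 6.53 and 4.66 FPKM in wild type, against 3.17 and 2.74 in the knockout. Knockout values were lower than wild-type values for each of them. The fall of Sesn1 by 0.82 ± 0.25 (adjusted p = 0.0259) was lost without wild-type replicate 1 (adjusted p = 0.223), without knockout replicate 2 (adjusted p = 0.0615), in DESeq2 (adjusted p = 0.137) and with limma on quantile normalized values (adjusted p = 0.0504).

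Its relative Sesn2, the stress cytokine Gdf15 and the kinase Plk2 did not pass, with log2 fold changes of -0.63 ± 0.26, -0.74 ± 0.31 and -0.39 ± 0.15 (adjusted p = 0.0738, 0.0857 and 0.0641). All 3 passed as lower with limma on log2(FPKM + 1) (adjusted p = 0.0387, 0.0232 and 0.0345), whereas none did in DESeq2 (adjusted p = 0.361, 0.392 and 0.370). For each of these 3 genes both knockout FPKM values were under both wild-type values, as with Gdf15 at 6.51 and 6.80 in wild type, against 2.95 and 4.47 in the knockout. The same held for 42.5% of all genes tested. Perp, a desmosomal p53 target and the most abundant of the 14, had 146 and 133 FPKM in wild type, against 161 and 147 in the knockout. It did not pass (0.24 ± 0.09, adjusted p = 0.0544). It did without knockout replicate 2 (adjusted p = 0.0174), whereas with limma on quantile normalized values its log2 fold change was -0.0088 (adjusted p = 0.948), so no direction is given for it. Zmat3, an RNA-binding regulator of splicing, and Ei24, an endoplasmic reticulum protein of autophagy, had log2 fold changes of 0.03 ± 0.12 and -0.03 ± 0.10 (adjusted p = 0.845 and 0.81).

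The start regions of these genes were searched for the p53 consensus half-site, the 10-base element of which p53 binds a pair. Windows of 300 bases, 250 before and 50 after the annotated start, were taken from RefSeq (GRCm38.p6), which gave a window for 37 of the 44 genes. An exact half-site, which reads alike on both strands, was in the windows of 9 of the 37, or 24.3%, beside 9.55% of 27025 genes. Of those 9, Bax, Mdm2, Ccng1, Aen and Gtse1 rose, Bmf and Sesn1 fell, and Trp53 and Ei24 did not pass. Several of these genes are known as p53 targets through such sites, so the share is a description of the list. The excerpts below run 5′ to 3′ on the gene's strand with the half-site in capitals, and are shown because they lie at the starts of genes that moved in both directions and of Trp53, which did not pass.
Ccng1, rose, chr11:40755437-40755496, minus strand: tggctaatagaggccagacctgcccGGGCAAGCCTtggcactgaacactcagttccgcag
Mdm2, rose, chr10:117710910-117710969, minus strand: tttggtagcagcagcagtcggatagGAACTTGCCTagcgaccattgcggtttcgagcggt
Bax, rose, chr7:45467065-45467124, minus strand: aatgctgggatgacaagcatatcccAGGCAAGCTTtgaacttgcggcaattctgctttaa
Aen, rose, chr7:78895927-78895956, plus strand: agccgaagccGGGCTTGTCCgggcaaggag
Sesn1, fell, chr10:41887241-41887300, plus strand: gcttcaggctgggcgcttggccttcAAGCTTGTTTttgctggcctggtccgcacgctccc
Bmf, fell, chr2:118544766-118544825, minus strand: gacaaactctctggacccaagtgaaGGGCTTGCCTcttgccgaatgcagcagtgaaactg
Trp53, did not pass, chr11:69580259-69580318, plus strand: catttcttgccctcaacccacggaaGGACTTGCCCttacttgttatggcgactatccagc
Gtse1, rose, chr15:85859940-85859969, plus strand: accgggagcaagttgGGGCTTGCCTctgac

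The half-sites began at -185 (Ccng1), -186 (Mdm2), -201 (Bax), -121 (Aen), -173 (Sesn1), -213 (Bmf), -75 (Trp53) and 9 (Gtse1) relative to the annotated start, so that the Gtse1 element lies after it. Aen has a second annotated start, from which its element is at 10. An exact half-site directly next to another exact one, as in a p53 response element, was in 0 of the windows of the 37 genes. A relaxed search, chosen after the values were seen, allowed at most 1 mismatch to the same consensus in the neighbouring 10 bases. It found such a pair in the windows of 29 genes, 0.107% of all, and Ccng1 and Gtse1 were among them. Both rose. A match is a description of letters, and binding of p53 was not measured here. The other 28 windows hold no exact half-site, which says nothing of sites outside them.

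Of 24 further p53 targets tested, 5 rose and 4 fell, or 37.5% called beside 43.7% of all genes, with a median log2 fold change of -0.15. Cdkn1a, which encodes the cell cycle inhibitor p21, rose from 163 ± 13.9 to 251 ± 26.7 FPKM (0.72 ± 0.10), and Sfn, which encodes 14-3-3 sigma of the epithelium, from 70.8 ± 2.30 to 252 ± 12.7 FPKM (1.93 ± 0.09). The receptor kinase gene Epha2 rose by 1.91 ± 0.11. Steap3, a metalloreductase, fell from 19.0 ± 1.05 to 5.79 ± 0.85 FPKM. Xpc, a DNA damage sensor of excision repair, went from 6.41 ± 0.13 to 2.94 ± 0.08 FPKM, a fall past the threshold (adjusted p = 0.00143).

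The death receptors under p53 also differed. Fas (Entrez 14102), the receptor of FAS ligand and a gene that cytokines also raise, had 5.52 and 7.35 FPKM in wild type, against 15.1 and 15.6 in the knockout. Both knockout values were above both wild-type values, and it rose by 1.44 ± 0.21 (adjusted p = 0.000664). Tnfrsf10b, the mouse TRAIL receptor, had 11.6 and 11.0 FPKM in wild type, against 9.63 and 9.26 in the knockout, with a fold change of -0.16 ± 0.12 (log2) that missed the threshold (adjusted p = 0.322).

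**Figure D4:**
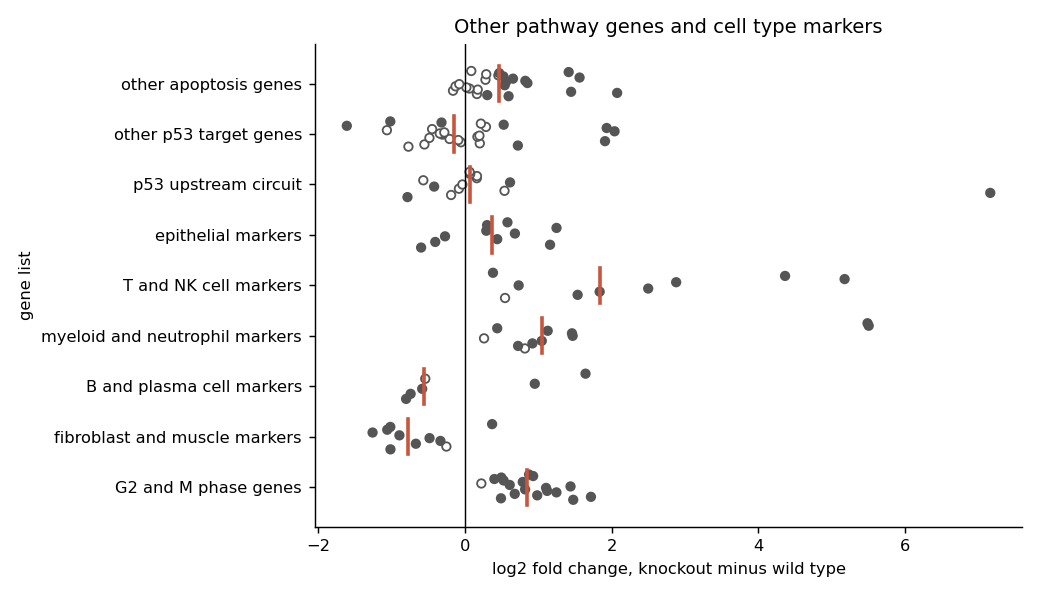
Log2 fold change (x axis) of the tested genes of each further list (y axis), filled where the adjusted p was under 0.05, with the list's median as a red bar and Ly6g left out. The T and NK cell median lies at 1.84 and the fibroblast and muscle median at -0.78, and Cdkn2a is the point at 7.17.

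The libraries that differ in these genes also differ in their cell type markers, and no result above was adjusted for them. Among all genes tested, 23.0% rose and 20.8% fell. Of 10 fibroblast and muscle markers, 8 fell and 1 rose, with Tagln, a smooth muscle gene, at 1028 ± 114 FPKM in wild type and 473 ± 96.5 in knockout. Of 6 B and plasma cell markers, 2 rose and 3 fell. The epithelial markers were not uniform either, as 7 of 10 rose and 3 fell. Krt20 of surface colonocytes rose from 414 ± 14.97 to 915 ± 27.3 FPKM. The 3 that fell were Epcam, Cdh1 (346 ± 5.18 to 213 ± 3.94 FPKM) and Cldn3 (574 ± 5.71 to 403.5 ± 13.5 FPKM).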

How the data were processed

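RNA-seq tables of 4 libraries were analysed, 2 per group, grouped by the labels. Per the file headers the authors deposited expected counts (estimated counts that need not be whole), FPKM and a length (other unit) per gene. The submitters' processing notes name Bowtie2, BWA and the build hg19. The build is human while the labels say mouse, and no quantifier is named in those notes. Symbols came from RefSeq (GRCm38.p6), which matched 99.72% of identifiers, and all 44 genes. A gene absent from a file counted as 0 there. Expected counts were rounded and tested in edgeR 4.0.16 (R 4.3.3; filterByExpr, TMM, glmQLFit, glmQLFTest, no block, two-sided) over all genes. Standard errors were derived from the log2 fold change and the F statistic. Alternatives used DESeq2 1.42.0 and limma 3.58.1. The test was tried on simulated data with the same relative scatter for every gene, which real genes need not have. The named genes were all 44 members, Ezh2 and Cdkn2a, up to 4 genes by p of each further list and the 2 most abundant markers. Other genes named (Xpc, Birc2, Birc3, Cenpf, Krt20, Epcam, Cdh1, Cldn3, Bcl2a1a, Bcl2a1b and Nkg7) and the neighbouring half-site search were chosen after their values were seen. Members and lists were chosen with earlier results of these data known. The values of 1 gene of a further list are not reported here.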

Additional observations from a re-analysis of the deposited data

How the results depend on the processing

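Each value was recomputed under 13 alternatives. Of the 20 called genes among the 44, 17 kept their direction and an adjusted p under 0.05 under every alternative that tested them. The exceptions were Casp9, Sesn1 and Eda2r. None of the 20 changed sign. Of the 23 genes that did not pass, 12 passed under at least 1 alternative and 7 changed sign under at least 1. The count of lower members, 7, went to 11 on library totals alone, 12 with limma on log2(FPKM + 1), 12 with limma on log2(FPKM + 0.01) and 14 with the replicate block. DESeq2 called 1739 genes lower in place of 2824. With a library left out, members higher ranged from 12 to 14 and members lower from 6 to 8. The replicate block called 18 members higher, and among the BH3-only genes it called Bad (adjusted p = 0.012), Bik (adjusted p = 0.036) and Bcl2l11 (adjusted p = 0.00645) beside Bmf. Over all genes it called 3855 higher and 3548 lower. The numbers share only a number in the labels, and deviations of same-numbered libraries correlated at 0.571 over all genes tested and 0.264 over genes whose transcript lists are identical across files. The annotation version also differs between the numbers. Genes with few counts, such as Eda2r, Bik and Bcl2l15, are limited by depth.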

Other observations

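The deposited length of a gene, by which FPKM is scaled, differed between files for some of these genes. Bok was listed at 1432 bases in both replicate 1 files and 1575 in both replicate 2 files, and Eda2r at 3958 and 4012 in the replicate 1 files and 4753 in both replicate 2 files. Bcl2 was listed at 7224 and 5500 bases in wild type and 6748 and 6310 in knockout. Fold changes from counts do not use these lengths.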
